A study of Bos taurus with 12 samples.

Results

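Genes that copy DNA and drive cells through mitosis were followed in the granulosa and theca cells of bovine ovarian follicles at 3 follicle sizes. A list of 45 gene symbols was drawn up, and a gene entered if a probe set of the array was annotated to it. This gave 38 genes with 51 probe sets, out of 9155 named genes on the array. Of the 38, 25 had 1 probe set and 13 had 2. No probe set was matched to MCM2, CDKN3, PTTG1, PRC1, KIF11, TOP2A or MKI67, and these 7 were not used here. By role the 38 comprised 15 replication genes, 9 mitotic kinases, cyclins and their CKS partners, 5 genes of the spindle checkpoint and anaphase, 8 of the spindle, kinetochore and cytokinesis, and the chromatin protein HMGB2.

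A follicle grows in part by division of the granulosa cells that line it from within and of the theca cells that wrap it in a vascular, steroid-making coat. Replication is licensed by loading the MCM helicase onto origins, is fed by the enzymes of nucleotide synthesis, and is carried out around the sliding clamp PCNA. Mitosis is then set off by CDK1 with its A and B cyclins, ordered by the Aurora and Polo kinases, held back by the spindle checkpoint and ended when the anaphase-promoting complex marks cyclin B for destruction.

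The cells came from small (up to 5 mm), medium (5 to 10 mm) and large (over 10 mm) antral follicles of young, cycling, non-pregnant heifers (Bos taurus), untreated and in the follicular stage, which was judged by ovaries with growing large follicles and no corpus luteum. Each layer and size had 2 arrays, making 6 groups and 12 arrays. An RNA sample pooled the cells of 20 to 40 follicles by the extraction protocol, while the design text speaks of as many ovaries, from 6 to 10 animals. Pooling hides the spread between animals, and whether pools shared animals is not stated, so p-values measure the spread between pools. The values are array signals, linear intensities that the authors had scaled. Comparisons were made in limma on log2(signal + 16), a scale that understates the change of dim genes, and a gene counts as called where its p, adjusted by Benjamini-Hochberg over all 17236 tested probe sets, was under 0.05. The brighter probe set stood for a gene, and all 38 genes passed the filter on low signal.

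The layers were labelled from the sample titles, since the description field names theca for all 12 samples. Theca markers summed to signals of 3902 to 6365 on the 6 granulosa arrays and 21702 to 33750 on the 6 theca arrays. Granulosa markers did not separate the layers as fully, with sums of 32021 to 48723 on granulosa and 10136 to 33896 on theca arrays. Theca large replicate 2 lay above granulosa large replicate 2 and granulosa small replicate 1 (32844). A pair of arrays stood apart. On theca small replicate 1 the ratio of 3' to 5' signal of the GAPDH control, a sign of RNA quality, was 8.36, while it was 0.984 to 1.30 elsewhere. Granulosa large replicate 1 had an actin 3'/5' ratio of 21.0 (2.39 to 11.2 elsewhere) and the highest median signal, 48.8 against 33.7 to 39.2. Replicates correlated with Spearman coefficients of 0.867 (small theca) to 0.948 (medium theca) over all probe sets.

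Many mitosis genes, among them most mitotic kinases and cyclins and the anaphase gene UBE2C, were higher in granulosa than in theca. Few replication genes were called, but 13 of 15 were higher in granulosa in the mean, with a median log2 difference of 0.43. Of these 15, 53.3% were higher at an unadjusted limma p under 0.05, against 19.5% of all genes. Whether the role groups differed was not tested. Over all 3 sizes, 14 of the 38 genes (36.8%) were called higher in granulosa and 0 higher in theca. Among all 7886 genes compared, 11.6% were called higher in granulosa and 13% higher in theca. The difference was positive for 35 of 38 genes, with a median log2 difference of 0.56, against 0.04 over all genes. In pooled tissue, a smaller share of dividing cells cannot be told apart from less of these transcripts in each cell. The called genes comprised 7 of 9 mitotic kinases and cyclins, 3 of 15 replication genes, 2 of 5 checkpoint and anaphase genes, 2 of 8 spindle genes and 0 of 1 chromatin genes. The replication share was 20%, against 11.6% of all genes, and 1 of the 3, TK1, was lost in 10 of 21 alternatives. Over the 21 alternatives the median of the 38 genes ran from 0.45 to 0.71, the highest without theca small replicate 2. That of all genes ran from -0.04 to 0.06.

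**Figure D1:**
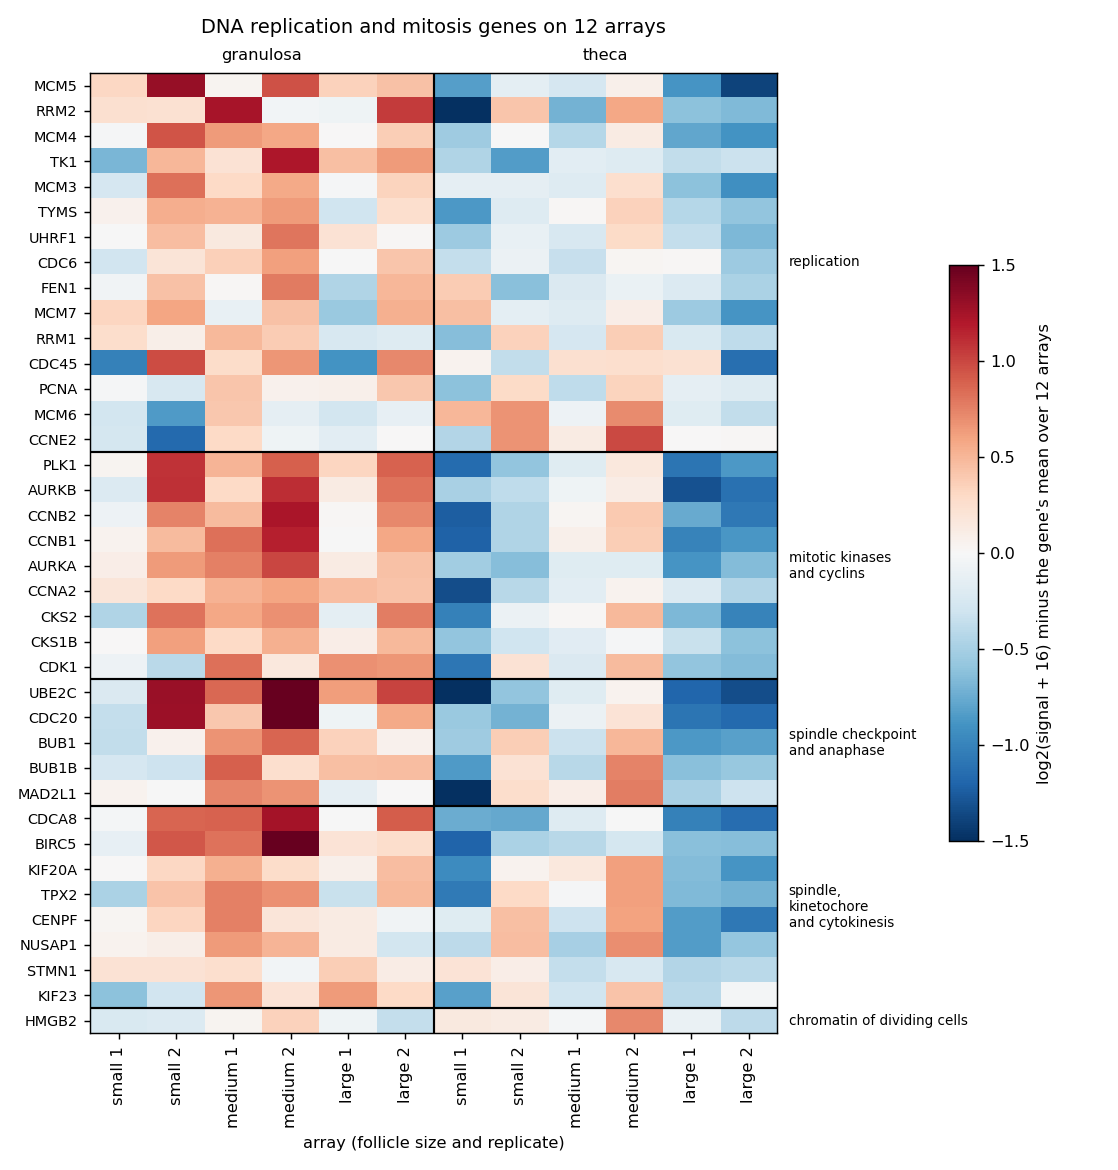
Each cell is the log2(signal + 16) of 1 gene on 1 array minus that gene's mean over the 12 arrays, from -1.5 (blue) to 1.5 (red). Rows are the 38 genes by role, and within a role by their layer difference. Most granulosa columns are mainly red and most theca columns mainly blue, but more genes lie below than above their mean on granulosa small replicate 1, and more above than below on theca medium replicate 2. On the medium granulosa arrays 37 and 34 of the 38 genes lie above their own mean, and on the large theca arrays 3 and 1 do.

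UBE2C, the ubiquitin-conjugating enzyme of the anaphase-promoting complex, showed the largest difference of the 38. Its signal ran from 449 to 1527 (median 1014) on the 6 granulosa arrays and from 133 to 540 (median 280) on the 6 theca arrays. The lowest granulosa array, of small follicles, lay below the highest theca array, of medium follicles, and within each size the layers did not overlap. The difference was 1.70 ± 0.28 on the log2 scale (SE of the model, 3.25-fold, limma adjusted p = 0.000761). CDC20, which activates the same complex, ran from 199 to 800 (median 372) in granulosa and from 106 to 302 (median 162) in theca, and was higher by 1.14 ± 0.29 (adjusted p = 0.0106). The checkpoint genes that restrain CDC20 were not called through their brighter probe sets. BUB1 differed by 0.55 (adjusted p = 0.0817), BUB1B by 0.50 (adjusted p = 0.152) and MAD2L1 by 0.44 (adjusted p = 0.258), and the layers overlapped for each. For MAD2L1 the highest of the 12 signals, 402, was on a theca array, medium replicate 2.

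Among the kinases, AURKA, which matures the spindle poles, ran from 196 to 379 (median 272) in granulosa and from 91.3 to 159 (median 117) in theca. No theca array reached the lowest granulosa array, and the difference was 1.02 ± 0.18 (2.02-fold, adjusted p = 0.00132). PLK1, the Polo kinase that acts from mitotic entry to cytokinesis, ran from 138 to 301 (median 229) in granulosa and from 51.2 to 151 (median 75.0) in theca, a difference of 1.24 ± 0.23 (adjusted p = 0.00148). AURKB, the kinase of the chromosomal passenger complex, ran from 157 to 414 (median 280) and from 64.6 to 200 (median 131), a difference of 1.08 ± 0.25 (adjusted p = 0.00653). For PLK1 and AURKB the theca arrays that overlapped granulosa were those of medium follicles.

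The mitotic cyclins were higher in granulosa by similar amounts. Cyclin B1 (CCNB1) ran from 145 to 349 (median 218) in granulosa and from 53.7 to 193 (median 87.7) in theca, a difference of 1.03 ± 0.21 (adjusted p = 0.00276). Cyclin B2 (CCNB2) differed by 1.04 ± 0.24 (adjusted p = 0.00656), and cyclin A2 (CCNA2), which serves both S phase and mitotic entry, by 0.83 ± 0.20 (adjusted p = 0.00738). CCNA2 signals of 73.0 to 102 in granulosa lay above all 6 theca signals of 15.3 to 65.5, the lowest of which was theca small replicate 1. Their kinase CDK1 itself was not called: signals of 127 to 318 (median 239) in granulosa overlapped 73.3 to 246 (median 128) in theca, with a difference of 0.62 ± 0.24 (adjusted p = 0.0784). Of the small CKS subunits that bind CDK1, CKS1B was called (0.68 ± 0.19, adjusted p = 0.0186, with no overlap between layers) and CKS2 narrowly was not (0.75 ± 0.27, adjusted p = 0.0518). The call of CKS1B was lost without any 1 of 3 arrays, granulosa small replicate 2, theca medium replicate 1 and theca large replicate 2.

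Both called spindle genes belong, with AURKB, to the chromosomal passenger complex, which corrects the attachment of chromosomes to the spindle. CDCA8 (borealin) ran from 167 to 427 (median 326) in granulosa and from 68.4 to 169 (median 94.8) in theca, a difference of 1.29 ± 0.22 (2.45-fold, adjusted p = 0.000905). BIRC5 (survivin) ran from 178 to 601 (median 296) and from 75.5 to 159 (median 128), a difference of 1.21 ± 0.23 (adjusted p = 0.00204). The layers touched for CDCA8 at a single pair of arrays and did not overlap for BIRC5. The other 6 spindle genes, among them the motor proteins KIF20A and KIF23 and the kinetochore protein CENPF, had differences of 0.31 to 0.55 and were not called. STMN1, which destabilises microtubules, differed by 0.38 (adjusted p = 0.118).

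Among the replication genes, the helicase subunits MCM5 and MCM4 and the kinase TK1 were called. MCM5 ran from 245 to 611 (median 317) in granulosa and from 81.0 to 251 (median 162) in theca, a difference of 1.14 ± 0.24 (adjusted p = 0.00406), and MCM4 from 224 to 450 and from 114 to 247, a difference of 0.84 ± 0.22 (adjusted p = 0.0120). Thymidine kinase TK1, which salvages thymidine for DNA synthesis, differed by 0.78 ± 0.24 (adjusted p = 0.0304). Signals of TK1 in granulosa ran from 136 to 551 and those in theca from 121 to 204. This was the least stable of the 14 calls: it was lost in 10 of 21 alternatives, 8 of them single arrays left out (granulosa small, medium and large replicate 2, theca small replicate 2, and each medium and large theca array).

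Subunits of the same helicase did not share 1 pattern. MCM3 differed by 0.58 (adjusted p = 0.0627) and MCM7 by 0.41 (adjusted p = 0.209), while MCM6 pointed the other way. MCM6 ran from 175 to 437 (median 283) in granulosa and from 250 to 544 (median 390) in theca, a difference of -0.42 ± 0.21 (adjusted p = 0.153). Cyclin E2 (CCNE2), which starts S phase with CDK2, gave -0.45 ± 0.25 (adjusted p = 0.198) and was lowest on granulosa small replicate 2, at 13.9. HMGB2, the only chromatin gene measured, gave -0.15 (adjusted p = 0.591). The clamp PCNA differed by 0.23 (adjusted p = 0.448), the ribonucleotide reductase subunit RRM1 by 0.26 and thymidylate synthase TYMS by 0.57 (adjusted p = 0.0517).

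**Figure D2:**
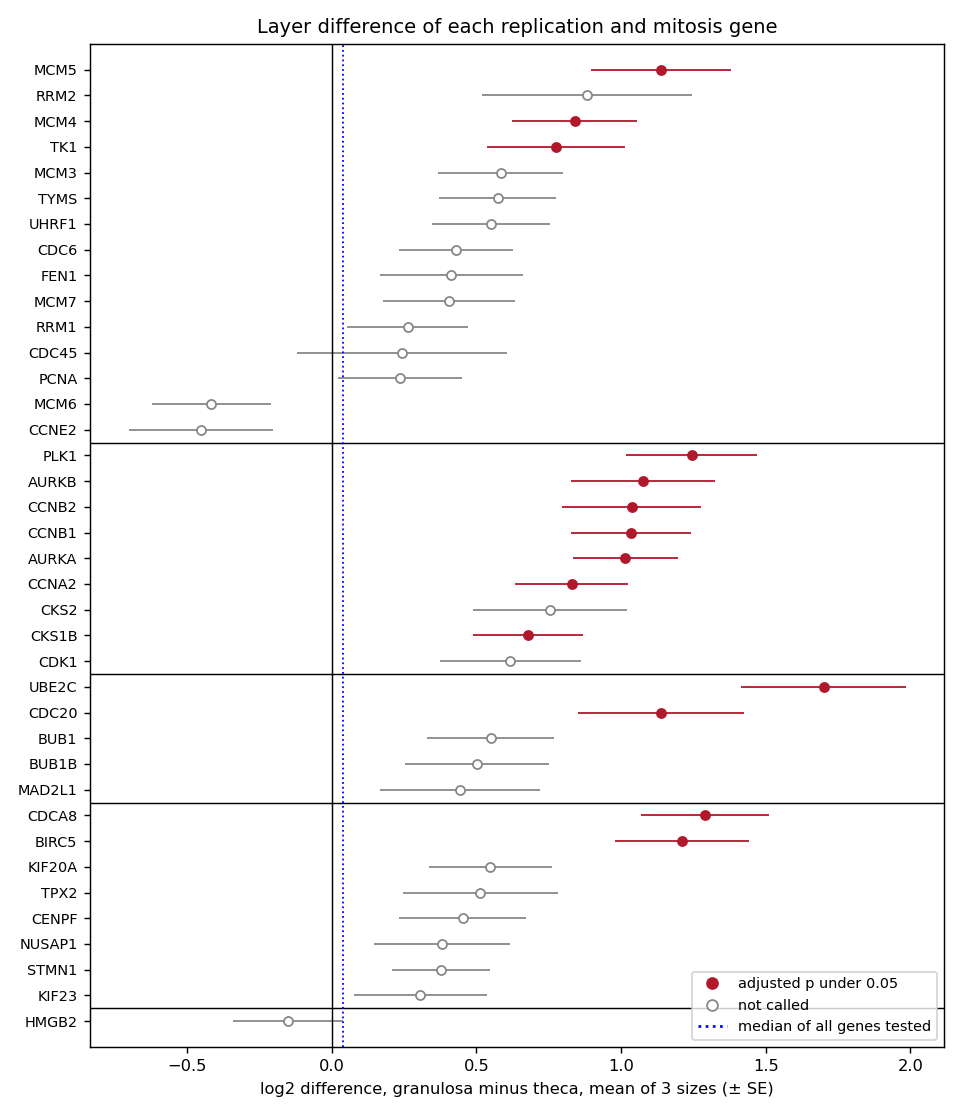
Points are the log2 difference, granulosa minus theca, averaged over 3 sizes, for the 38 genes in role order, with bars of 1 standard error of the limma model (12 arrays). Red points are the 14 called genes, all to the right of 0. The dotted line is the median of all genes compared, 0.04, and 3 genes (MCM6, CCNE2 and HMGB2) lie to the left of 0.

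Second probe sets gave a check on 11 genes whose dimmer probe set was also tested. For 6 of them (AURKA, AURKB, BUB1, TPX2, KIF20A and CDCA8) the dimmer probe set was called higher in granulosa. The AURKA second probe set differed by 1.68 (adjusted p = 4.81e-05), more than the 1.02 of the brighter one, and that of CDCA8 by 1.10 (adjusted p = 0.000684). BUB1 (0.80, adjusted p = 0.0114), KIF20A (0.89, adjusted p = 0.0211) and TPX2 (1.07, adjusted p = 0.0488) were called only through the dimmer probe set, so 17 genes were called by any probe set. The dimmer probe set of BUB1 was near the floor, with a mean signal of 22.2 over 12 arrays and 1.9 to 25.5 in theca. The probe sets of MCM6 disagreed in sign, with 0.42 ± 0.40 for the dimmer one (adjusted p = 0.464). Those of HMGB2 disagreed too: the brighter gave -0.15, while the dimmer averaged signals of 38.25 in granulosa and 29.77 in theca. On theca small replicate 1 the dimmer probe set of MCM6 read 9.0 against 471 for the brighter one, and that of TPX2 read 4.7 against 96.4. The dimmer probe set was at its lowest relative to the brighter one on that array for 4 of the 11 genes, and on granulosa small replicate 2 for 3. UHRF1 went the other way on theca small replicate 1, where its dimmer probe set read 139 against 73.5 for the brighter one. Theca small replicate 1 also had the high GAPDH 3'/5' ratio, whose part in these values was not tested.

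Within single sizes, 2 against 2 arrays, few genes were called, and each such count rested on single arrays. In small follicles UBE2C and PLK1 were called higher in granulosa, 2 of 38 against 3.23% of all genes. UBE2C read 449 and 1299 in small granulosa and 133 and 340 in small theca (1.77, adjusted p = 0.0389), and PLK1 read 138 and 301 against 51.2 and 83.6 (1.43, adjusted p = 0.0362). Neither layer overlapped the other, and the replicates of each layer differed by over 1.5 times. Neither call held without granulosa small replicate 2, theca small replicate 1 or any medium or large theca array.

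In medium follicles BIRC5 alone was called, 1 of 38 against 1.51% of all genes. It read 355 and 601 in medium granulosa and 142 and 159 in medium theca (1.52, adjusted p = 0.0383). Without granulosa medium replicate 2 or any medium or large theca array it was not called.

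In large follicles 37 of 38 genes were higher in granulosa in the mean, with a median of 0.88 (0.05 over all genes), against 0.56 in small and 0.46 in medium follicles. The medians of small and medium follicles rested on single arrays. That of small follicles was 0.24 without granulosa small replicate 2 and 0.87 without theca small replicate 2, and that of medium follicles was 0.23 without theca medium replicate 1 and 0.74 without theca medium replicate 2. The change of the gap from small to large was called for 0 genes. On both large granulosa arrays 30 of 38 genes were above both large theca arrays, where 29.4% of all genes were. The called genes were UBE2C, PLK1, CDCA8 and AURKB, 4 of 38 against 2.22% of all genes. UBE2C read 817 and 1067 in large granulosa and 220 and 198 in large theca (2.08, 4.23-fold, adjusted p = 0.0302). AURKB read 200 and 333 against 64.6 and 75.7 (1.67, adjusted p = 0.0428), CDCA8 170 and 334 against 76.2 and 68.4 (1.53, adjusted p = 0.0377), and PLK1 172 and 261 against 54.3 and 66.4 (1.58, adjusted p = 0.0372). For each of the 4, the large theca arrays lay close together and well below large granulosa. None of the 4 calls held without granulosa large replicate 2 or either large theca array.

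Immune marker signals were uneven in that comparison. The summed signal of 18 immune markers was 21382 and 8159 on the large granulosa arrays, the higher on replicate 1, which stood apart. It was 860 to 2327 on the other granulosa arrays and 5297 and 2852 in large theca. Of the 18, 7 were called higher in large granulosa than in large theca (2.22% of all genes). Their part in the gap of the replication and mitosis genes was not tested.

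**Figure D3:**
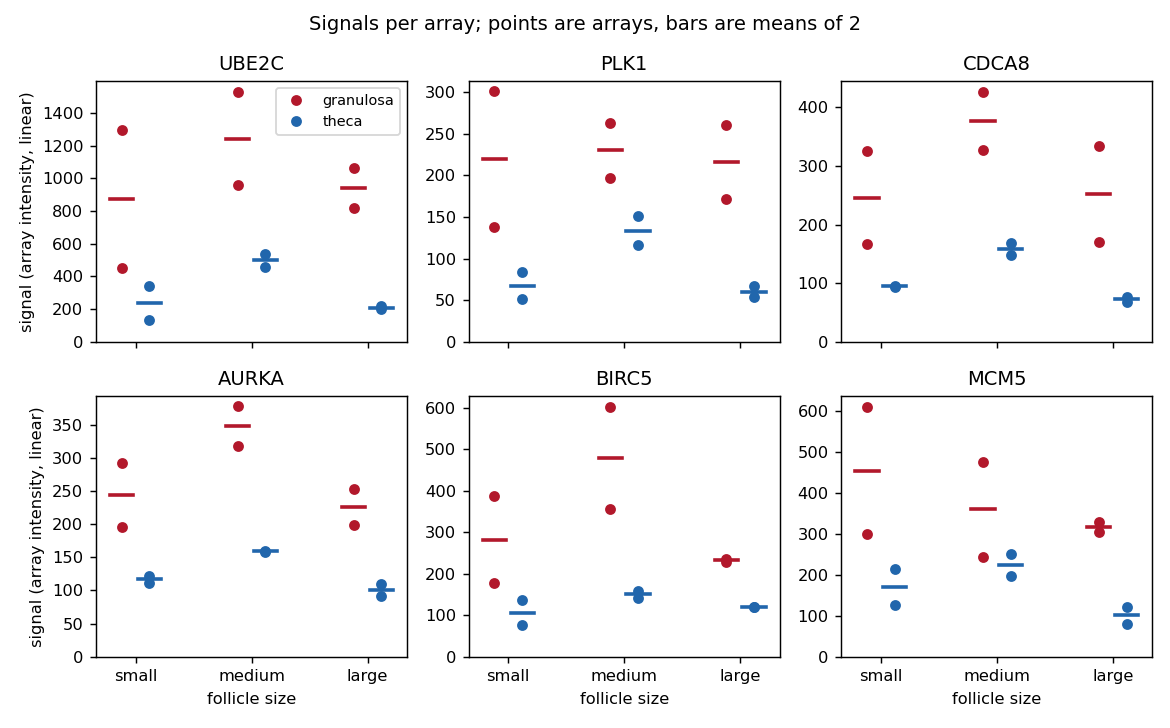
Linear signals of UBE2C, PLK1, CDCA8, AURKA, BIRC5 and MCM5 by follicle size, with 1 point per array (red granulosa, blue theca) and a bar at the mean of 2 arrays. Within every size both granulosa points lie above both theca points, except for MCM5 in medium follicles, and the theca means are highest in medium follicles for all 6 genes.

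By size, no replication or mitosis gene was called in any comparison, but most of the genes had their highest group mean in medium follicles. In granulosa 32 of 38 genes (84.2%) had their highest mean in medium follicles, against 27.2% of all genes, and in theca 34 of 38 (89.5%) did, against 29.7% of all genes. The lowest granulosa mean was in small follicles for 21 genes (55.3%, against 33.6% of all genes) and in large follicles for 16 (42.1%, against 38.1%). Large theca held the lowest mean of its layer for 32 of 38 genes (84.2%, against 35.9% of all genes) and the highest for 0 (31.8% of all genes). These genes move together across arrays and are not separate pieces of evidence. The counts also leaned on single arrays. Without theca medium replicate 2 the theca count was 22 of 38, and without theca small replicate 1 it was 24. The granulosa count was 22 without granulosa small replicate 1, and 25 without granulosa large replicate 1. Without theca small replicate 2, only 16 genes were lowest in large theca.

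From small to medium follicles, granulosa gave a median of 0.47, with 35 of 38 genes positive, 17 with both medium arrays above both small arrays (13.1% of all genes) and 0 called in limma (0% of all genes called). At an unadjusted p under 0.05 there were 2, where 1.23% of all genes lay. Without granulosa small replicate 1 the median was 0.21. The checkpoint genes had the highest median among the larger role groups, 0.68 over 5 genes. BUB1 read 89.8 and 126 in small granulosa and 202 and 234 in medium granulosa (0.93, adjusted p = 1), and BUB1B 91.7 and 88.2 against 224 and 138 (0.86). CDK1 read 163 and 127 against 318 and 195 (0.73). Both medium arrays were above both small ones for each of these. The helicase subunits MCM5 (-0.31) and MCM7 (-0.29) and the microtubule regulator STMN1 (-0.11) had lower means in medium than in small granulosa.

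The same step in theca had a median of 0.42, with 34 of 38 positive, 16 without overlap (18.8% of all genes) and 0 called (0.0127% of all genes called). At an unadjusted p under 0.05 there were 7 genes (2.9% of all genes). Kinases and cyclins led here, all 9 positive, with a median of 0.80 and no overlap for 8. CCNB1 read 53.7 and 103 in small theca and 156 and 193 in medium theca (1.06, adjusted p = 0.799), and UBE2C 133 and 340 against 460 and 540 (1.16, adjusted p = 0.799). The lower small theca value of each was on replicate 1, the array with the high GAPDH ratio. Without that array the median over the 38 genes was 0.15. Its effect on the signal of each gene was not tested.

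From medium to large follicles theca had the larger median shift, and whether the layers differed in it was not tested. All 38 genes were lower in large than in medium theca, with a median of -0.70 against -0.02 over all genes. Both large arrays were below both medium arrays for 32 of 38 genes (84.2%), where 24.8% of all genes were, and 12 genes had an unadjusted p under 0.05 in the lower direction, against 2.3% of all genes. None was called in limma, where 0% of all genes were called and each of the 38 had an adjusted p of 1. The median was -0.46 without theca medium replicate 2, with 34 of 38 genes negative, and -1.0 without theca medium replicate 1.

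AURKB read 175 and 200 in medium theca and 64.6 and 75.7 in large theca, a change of -1.24 ± 0.43. CCNB1 read 156 and 193 against 64.7 and 72.5 (-1.16 ± 0.36), and CDC20 243 and 302 against 113 and 106 (-1.19 ± 0.49). In each case the large arrays were close together at under 0.5 times the medium mean. All 9 kinases and cyclins and all 5 checkpoint and anaphase genes had large theca arrays below medium ones, as did 7 of 8 spindle genes and 10 of 15 replication genes. KIF20A, the kinesin of the central spindle, read 149 and 211 against 78.4 and 63.8 (-1.16 ± 0.37), and CENPF 116 and 233 against 75.9 and 62.1 (-1.10 ± 0.38). Replication genes had the smaller median, -0.58 against -0.97 for kinases and cyclins. MCM5 read 196 and 251 against 122 and 81.0 (-1.04), whereas PCNA gave -0.14 and the origin-licensing factor CDC6 gave -0.10, both with overlapping arrays. The difference between role groups was not tested.

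Endothelial markers were lower there too. All 12 that were tested were lower in large than in medium theca, without overlap (24.8% of all genes), with a median of -1.12. The summed signals of 13 such markers were 1168 and 673 in large, 2336 and 2006 in medium and 2452 and 1696 in small theca. None of the 12 was called. Granulosa markers summed to 22488 and 33896 in large theca, against 23786 and 13057 in medium and 10136 and 13227 in small theca. The part of either cell type in the values of the replication and mitosis genes was not tested.

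Granulosa from medium to large follicles gave a smaller shift, a median of -0.35 with 34 of 38 genes negative and 13 without overlap (18.8% of all genes). Here too 0 were called in limma (1.05% of all genes called), and 1 had an unadjusted p under 0.05 (3.45% of all genes). BIRC5 had the largest change, from 355 and 601 in medium to 227 and 236 in large granulosa (-0.95, adjusted p = 0.367), with no overlap. MAD2L1 read 392 and 378 against 209 and 232 (-0.76, adjusted p = 0.598). CDK1 did not follow, at 318 and 195 against 288 and 282 (0.18), and STMN1, KIF23 and PCNA were also slightly positive. The median was -0.56 without granulosa medium replicate 1 and -0.13 without granulosa large replicate 1, the array of highest median signal and immune sum. Of 18 immune markers, 14 were called higher in large than in medium granulosa (1.04% of all genes), and their part was not tested.

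**Figure D4:**
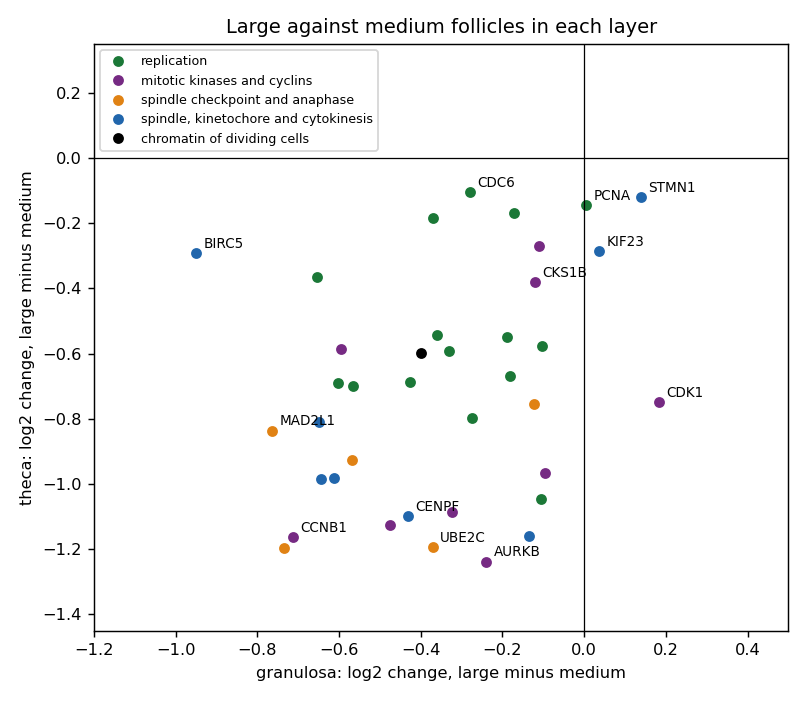
Each point is 1 of the 38 genes, placed by its log2 change from medium to large follicles in granulosa (horizontal) and in theca (vertical), coloured by role. All points lie below 0 on the theca axis, and 34 lie left of 0 on the granulosa axis. CDK1 lies furthest to the right, at 0.18, and BIRC5 furthest to the left, at -0.95.

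Large against small follicles showed no common direction in granulosa. The median was 0.02 with 22 of 38 genes positive, it ran from -0.31 to 0.30 over the alternatives, and 0 genes were called (2.8% of all genes called), with 2 positive at an unadjusted p under 0.05 (8.93% of all genes). CDK1 read 163 and 127 in small and 288 and 282 in large granulosa (0.91, adjusted p = 0.341), and KIF23, a motor of the cytokinetic midbody, 76.5 and 100 against 204 and 159 (0.92, adjusted p = 0.296). Neither pair overlapped. MCM7 pointed down, from 736 and 892 to 393 and 855 (-0.47, adjusted p = 0.643), with overlapping arrays.

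In theca the same comparison gave a median of -0.21, with 32 of 38 genes negative and 14 without overlap in that direction (22.1% of all genes). Again 0 were called (0.0634% of all genes called), and 3 had an unadjusted p under 0.05 (4.96% of all genes). CENPF read 129 and 208 in small and 75.9 and 62.1 in large theca (-1.09, adjusted p = 0.365), MCM6 471 and 531 against 286 and 250 (-0.86, adjusted p = 0.438), and MCM7 805 and 527 against 399 and 311 (-0.86). Each had both large arrays below both small arrays. CCNA2 pointed up (0.55, adjusted p = 0.598), from 15.3 and 42.7 to 52.1 and 41.8, with its low value again on theca small replicate 1. The median was -0.54 without that array and 0.11 without theca small replicate 2, so its sign depended on which small theca array was used.

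The difference between the layers in the large-to-small change was tested directly and was called for 0 of 38 genes (0.0254% of all genes called), with 1 gene at an unadjusted p under 0.05 (7.04% of all genes). Its median was 0.32, with 33 of 38 positive, but it was -0.09 once granulosa small replicate 1 was left out. With both arrays that stood apart left out it was 0.77. MCM6 had the largest value, 1.22 (adjusted p = 0.416).

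Viewed array by array, the median position of the 38 genes relative to their own means was -0.04 and 0.46 on the small granulosa arrays, 0.51 and 0.62 on the medium and 0.05 and 0.44 on the large. In theca it was -0.60 and -0.10 on the small, -0.18 and 0.31 on the medium and -0.61 and -0.65 on the large arrays. All genes together stayed between -0.03 and 0.05. Large theca replicates were nearly alike, while replicates of the other groups except medium granulosa differed by 0.40 to 0.50, about the size of the steps between follicle sizes. Across the 12 arrays, which share the layer difference, the median correlation between pairs of genes was 0.89 among kinases and cyclins, 0.72 among checkpoint and anaphase genes, 0.62 among spindle genes and 0.55 among replication genes.

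**Figure D5:**
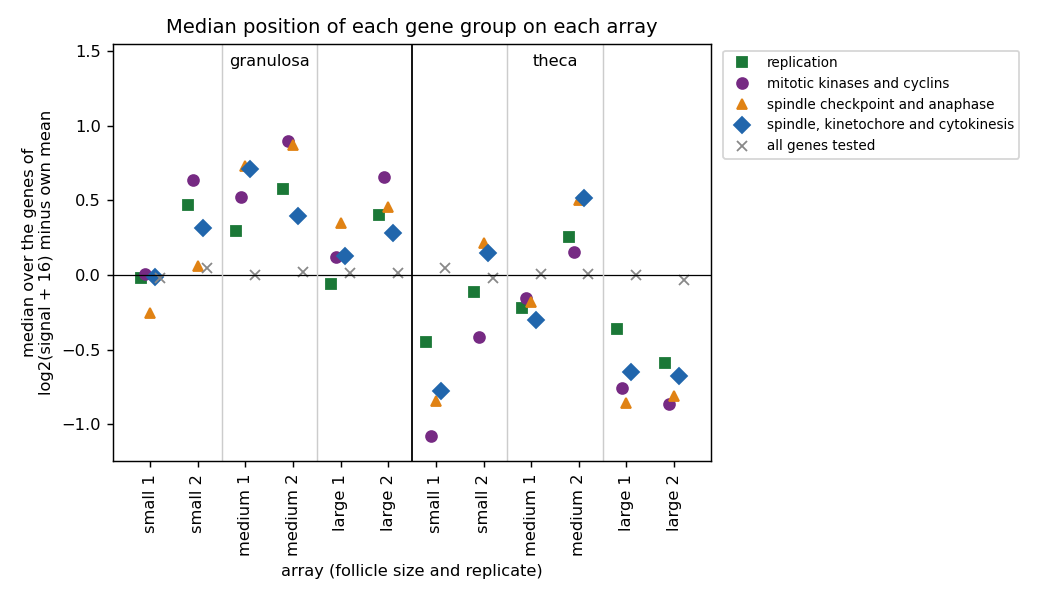
The vertical axis is the median over a role group's genes of log2(signal + 16) minus the gene's own mean, and the horizontal axis lists the 12 arrays. Coloured symbols are the 4 larger role groups and grey crosses all 7886 genes compared. All 4 groups are at 0.29 or higher on the medium granulosa arrays and at -0.36 or lower on the large theca arrays, while the crosses stay between -0.03 and 0.05.

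Further genes of the same pathways were read from lists that held none of the 38. Of 30 other mitosis genes tested, 14 (46.7%) were called higher in granulosa over all sizes and 0 lower, with a median of 0.59. Among all genes 11.6% were called higher and 13% lower. They included CCNF, a cyclin-like F-box protein (1.30 ± 0.24, adjusted p = 0.00149), ESPL1, the separase that cuts cohesin (1.17, adjusted p = 0.00123), GTSE1 (1.14) and CDCA3 (1.14). ESPL1 ran from 52.2 to 133 on granulosa and from 18.0 to 57.0 on theca arrays. Of 33 other replication genes, 6 (18.2%) were called higher and 1 (3.03%) lower, with a median of 0.29. Their share called higher was thus nearer to the 11.6% of all genes. ASF1B, a histone chaperone, gave 0.90, the replication protein A subunit RPA3 gave 0.87, and the DNA polymerase subunit POLD1 gave 0.82, while ORC6 of the origin recognition complex was lower in granulosa (-0.51, adjusted p = 0.0409).

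None of the 30 and 33 genes was called between sizes, where 0% to 2.8% of all genes were called per comparison. In large against medium theca all 30 other mitosis genes were lower, with a median of -0.64 (-0.02 over all genes). Of the 30, 23 (76.7%) were lower without overlap, where 24.8% of all genes were. Lower means were also seen for 28 of 33 other replication genes, with a median of -0.23.

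Upstream of these genes are the D cyclins, which carry growth signals to the cell cycle engine. Of them, CCND2 and CCND3 split between the layers. CCND1 was dim, at 8.1 to 32.1 on granulosa and 12.1 to 50.5 on theca arrays, and was not called over all sizes. CCND2 ran from 951 to 2940 on granulosa arrays and from 421 to 885 on theca arrays, was called in every size, and differed by 1.61 ± 0.23 over all sizes (3.06-fold, adjusted p = 0.000209). CCND3 was lower in granulosa (-0.95 ± 0.22, adjusted p = 0.00589), at 158 to 318 against 183 to 723. It was called lower in small (-1.56) and medium follicles (-1.44) but not in large ones. There CCND3 read 243 and 318 in granulosa and 338 and 183 in theca, with overlapping arrays. Cyclin E1 (CCNE1) was higher in granulosa (0.74, adjusted p = 0.0114), unlike its paralogue CCNE2. Of the 14 G1 cyclins, kinases and E2F factors tested, 3 (21.4%) were called higher and 1 (7.14%) lower, against 11.6% and 13% of all genes.

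Of 10 inhibitors of division tested, 2 were called higher and 1 lower in granulosa, where 11.6% and 13% of all genes were. RPRM, which arrests cells before mitosis, was higher by 2.00 ± 0.24 (adjusted p = 4.74e-05), the CDK inhibitor CDKN1A was higher by 0.77 (adjusted p = 0.0141), and CCNG1 was lower (-1.72, adjusted p = 0.000322). RPRM was the only gene of the 4 lists called between sizes. It read 540 and 438 in small, 38.1 and 97.1 in medium and 52.8 and 46.8 in large granulosa, a change from small to large of -2.93 ± 0.41 (7.64-fold lower, adjusted p = 0.00419). Its high signal was confined, among the 12 arrays, to the 2 of small granulosa, and the next highest was 111, on theca small replicate 2.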

How the data were processed

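Total RNA of granulosa and theca cells was hybridised to Affymetrix bovine arrays of 1 colour with biotin label, per the labels' protocols. The deposited values were linear signal intensities, 1 per probe set and array. The software behind them is not given in the sources used here. The authors had scaled them, since the 2% trimmed mean was 125 on each array. With 2 arrays per group, the number of arrays limits the precision.

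Of 24128 probe sets, 112 controls were left out. Among the other 24016, the platform annotation gave 13292 a single symbol and 86 several, and 10638 were unnamed here. The RefSeq gene table (ARS-UCD2.0, for names only) held the Entrez identifiers of 13263, and 0 symbols changed. The filter kept the 17236 probe sets with a group mean above a signal of 22.5 (the 40th percentile of the table) in 1 or more groups. The probe set with the highest mean over 12 arrays stood for a gene, and shares of all genes use the 7886 genes whose brightest probe set was tested.

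A limma model (3.58.1, R 4.3.3) of 6 group means was fitted to log2(signal + 16) on all 12 arrays, with 6 residual degrees of freedom, and 11 contrasts were tested with Benjamini-Hochberg adjustment. The model was run on simulated data with independent noise for each probe set, a check only that called changes had the right sign. Alternatives were other pseudocounts, scalings, filters and spread models, a replicate block, any probe set, and arrays left out. Leaving out arrays for the counts of highest and lowest size was added after seeing the data. Python 3.11.15 and matplotlib 3.10.9 drew the figures.

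Genes named with array values are, per role, the called ones, the 4 with the smallest adjusted p between layers and the 3 with the largest large-to-small change in each layer. From the pathway lists they are up to 4 called genes. Any further gene was named with its values already known. The 38 genes, the role groups and the other lists were chosen with earlier results of these data known.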

Additional observations from a re-analysis of the deposited data

How the results depend on the processing

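The layer difference over all sizes kept its direction for all 14 called genes in the 21 alternatives run, and 12 of the 14 stayed called in each (highest adjusted p 0.0436 in limma), the exceptions being TK1 and CKS1B. The count was 13 to 17 outside the fits that left out an array and 12 to 23 within them. Counts within a size were unstable. With log2(signal + 1) they were 0, 0 and 0 (small, medium, large), and with log2(signal + 64) 3 in small (1 of them lower in granulosa), 2 in medium and 1 in large. Quantile normalization gave 1 in small and 2 in large, median centring 1 in large, and no filter 1, 0 and 0. Without both arrays that stood apart there were 0 in small and 2 in medium follicles, and any probe set gave 2 in medium. Leaving out single arrays gave 0 to 8 in small, 0 to 1 in medium and 0 to 7 in large follicles. In size comparisons the count stayed 0 in each alternative except 1 in medium against small theca without theca small replicate 2. The counts of genes highest in medium follicles ran from 22 to 33 in granulosa and from 22 to 36 in theca, and those lowest in large theca from 16 to 35, when single arrays were left out. The causes were not tested.

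Whether replicate numbers pair the samples is not stated, and the values do not settle it. The difference of replicate 1 minus replicate 2 was correlated between groups over probe sets. Over 15 pairs of groups this correlation ran from -0.33 to 0.40, with a median of -0.07, and 6 were over 0.1. With the replicate number as a block, 16 genes were called over all sizes, and 4, 1 and 6 within small, medium and large follicles. The size comparisons gave 0. The share of all genes called with that block is not given here.

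Each group has 2 pools, and dim genes such as CDC45 (1.1 to 58.2) and CDC6 are the least well measured.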
